A study of Homo sapiens with 6 samples.

Results

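The genes described here encode the E2F transcription factors E2F1 to E2F8 and their DP partners TFDP1 and TFDP2. They were taken by gene symbol from the deposited table of HCT116 RNA-seq, where all 10 symbols were present among 61806 rows, each an Ensembl gene. HCT116 is an established human colorectal carcinoma line, and the samples were 3 libraries of wildtype cells that received a control siRNA (si-NC) and 3 of STRIP2 knockdown cells (si-STRIP2). STRIP2 belongs to STRIPAK, a complex of phosphatase PP2A with kinases, and the comparison asked which transcripts differed between the groups. Nothing in the labels tells separate cultures from repeat libraries within a group, so the p-values measure the spread between these libraries, which may be technical. The siRNA sequence and the time of harvest are not given in the sources used here, and 1 cell line was used.

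E2F proteins bind DNA as dimers with a DP protein and control genes needed for entry into S phase. E2F1, E2F2 and E2F3 are activators that the retinoblastoma protein RB1 holds inactive until cyclin-dependent kinases phosphorylate it. E2F4 and E2F5 act mainly as repressors together with the pocket proteins RBL1 and RBL2. E2F6 does not bind pocket proteins and works with a Polycomb complex, PRC1.6. The atypical factors E2F7 and E2F8 bind DNA without a DP partner and repress E2F target genes late in the cycle.

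Libraries held between 17184963 and 21721218 counts. STRIP2, the targeted gene, stood at 3.19, 3.77 and 3.81 FPKM in the si-NC libraries and at 2.71, 2.53 and 2.58 FPKM in the si-STRIP2 libraries (FPKM scales fragments by exon length and by the library total). The fitted log2 fold change was -0.46, SE 0.083 (adjusted p = 1.62e-05 by the quasi-likelihood test of edgeR), so the targeted transcript was lowered and not removed. All 7 colorectal epithelial markers examined were tested. Their summed level was 774 to 803 FPKM in si-NC and 728 to 755 FPKM in si-STRIP2. Of these markers 1 was called higher, 5 lower and 1 was not called, beside 27.8% of all tested genes called higher and 27.0% lower. The leukocyte markers summed to at most 0.29 FPKM in any library. The fibroblast markers summed to between 1.94 and 2.68 FPKM, nearly all of it COL1A1, and COL1A2 had no count in any library. The endothelial markers summed to 0.37 to 0.46 FPKM in si-NC and to 0.16 to 0.23 FPKM in si-STRIP2, and 1 of 4, KDR, named after its values were seen, was tested and called lower. The part of these markers in the results on the E2F family was not tested.

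The family split between rises and falls. TFDP1, E2F1 and E2F4 rose in si-STRIP2 cells, and E2F6, TFDP2 and E2F7 fell. E2F2, E2F3, E2F5 and E2F8 did not pass the test. Every change was small, the largest rise being 1.25-fold (TFDP1) and the largest fall 1.33-fold (E2F6). A gene was called at an adjusted p under 0.05 in the edgeR test over 15687 genes. All 10 members were tested, 6 were called, and 54.8% of all tested genes were called in this comparison. The 3 called higher and the 3 called lower stand beside 27.8% of tested genes called higher and 27.0% called lower. The count of called members was therefore near the background, and what follows describes which members moved and in which direction. The median log2 fold change was -0.057 over the 10 members and 0.014 over all tested genes.

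**Figure D1:**
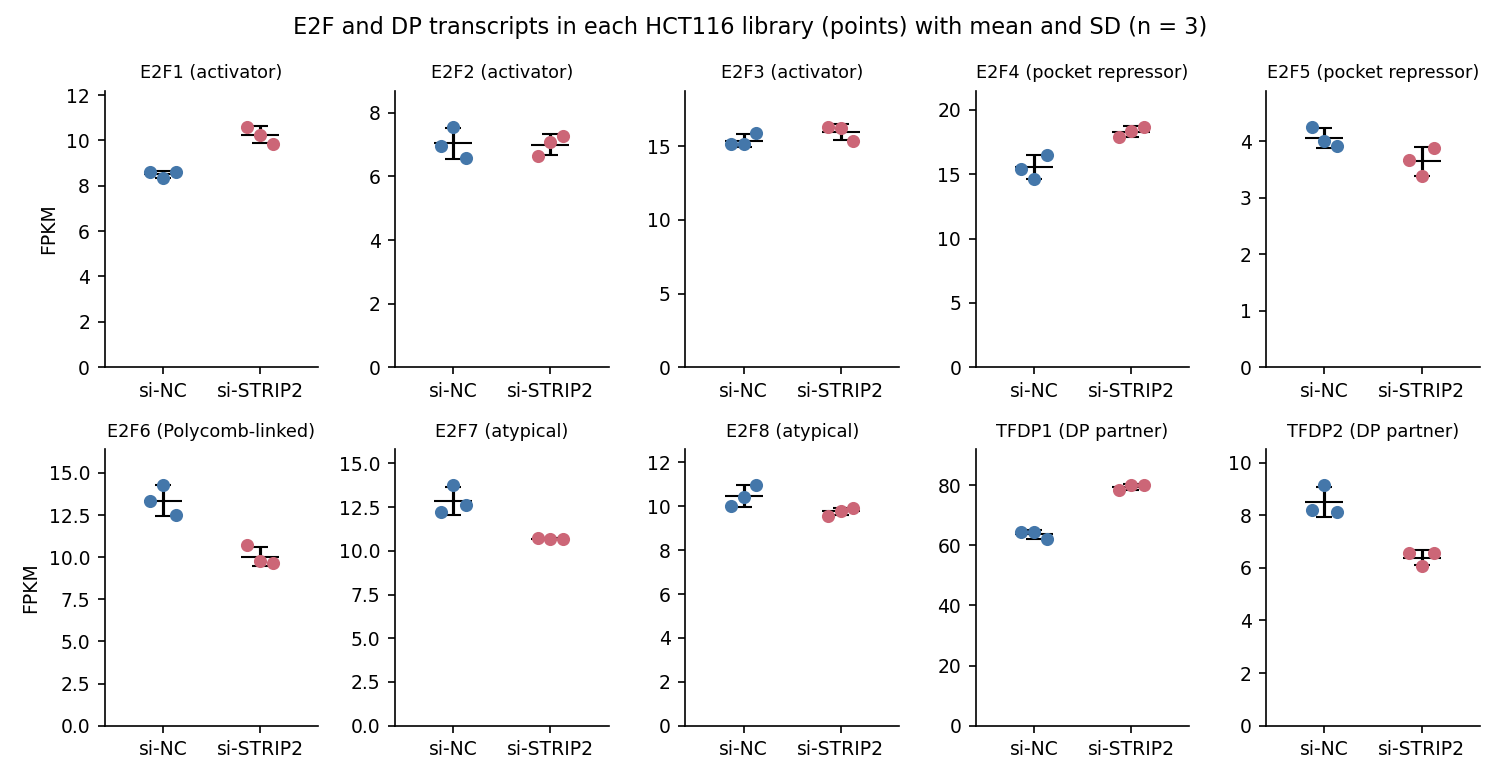
Each panel plots the FPKM of 1 gene in the 3 si-NC libraries (blue points) and the 3 si-STRIP2 libraries (red points), with the mean as a black line and the SD as a bar, on an axis that starts at 0. TFDP1, E2F1 and E2F4 lie higher in every si-STRIP2 library, E2F6, E2F7 and TFDP2 lie lower in every one, and the points of E2F2 and E2F3 overlap between groups.

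In 8 of the 10 members the FPKM ranges of si-NC and si-STRIP2 were separate, as they were in 58.6% of tested genes. Per length, TFDP1 was by far the most abundant of them, with a mean of 63.7 FPKM in si-NC. E2F4 followed at 15.5 FPKM and E2F3 at 15.4 FPKM, and these levels overlapped between libraries. E2F6 at 13.4 FPKM and E2F7 at 12.9 FPKM also overlapped, as did E2F1 at 8.51 FPKM and TFDP2 at 8.49 FPKM. E2F8 lay between these pairs at 10.5 FPKM, and E2F2 at 7.04 FPKM and E2F5 at 4.06 FPKM were the least abundant. In si-STRIP2 cells the order kept TFDP1, E2F4 and E2F3 in the first places and E2F5 in the last. There E2F1 (10.2 FPKM) overlapped E2F6 (10.0 FPKM), which overlapped E2F8 (9.77 FPKM), and TFDP2, with a mean of 6.39 FPKM and a highest value of 6.56 FPKM, lay under E2F2, whose lowest value was 6.63 FPKM.

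Among the activators, E2F1 was the only one called. E2F1 (ENSG00000101412, chromosome 20, 33675477 to 33686385, minus strand) is the founding member and the one most tied to S phase entry and to apoptosis. Its level was 8.61, 8.33 and 8.59 FPKM in si-NC and 10.61, 10.25 and 9.86 FPKM in si-STRIP2. All 3 si-STRIP2 libraries lay above all 3 si-NC libraries. The mean rose from 8.51 ± 0.156 to 10.2 ± 0.375 FPKM (SD, n = 3), a log2 fold change of 0.26 with SE 0.068 (adjusted p = 0.00132 by edgeR). Of the tested genes, 48.9% had a larger change in absolute terms, so this was a middling difference in these libraries.

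E2F2 (ENSG00000007968, chromosome 1, 23506438 to 23531233, minus strand) stood at 6.97, 7.57 and 6.58 FPKM in si-NC and at 6.63, 7.10 and 7.28 FPKM in si-STRIP2. The groups overlapped throughout. Its log2 fold change was -0.012, with a 95% interval from -0.13 to 0.11 (edgeR adjusted p = 0.884). E2F3 (ENSG00000112242, chromosome 6, 20401879 to 20493714, plus strand), the most abundant activator, was at 15.12, 15.13 and 15.88 FPKM in si-NC and at 16.33, 16.25 and 15.32 FPKM in si-STRIP2. One si-STRIP2 library, replicate 3, lay within the si-NC range. The log2 fold change of E2F3 was 0.052, with a 95% interval from -0.039 to 0.14 (edgeR adjusted p = 0.335). The counts combine the E2F3a and E2F3b transcripts, which start at different promoters and could not be separated here. Whether E2F1 differed in response from E2F2 or E2F3 was not tested.

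Of the pocket-bound repressors, E2F4 rose. E2F4 (ENSG00000205250, chromosome 16, 67192155 to 67198918, plus strand) is the main E2F of the DREAM complex, which silences cell cycle genes in resting cells. It was at 15.45, 14.65 and 16.51 FPKM in si-NC and at 17.93, 18.34 and 18.71 FPKM in si-STRIP2. The lowest si-STRIP2 library lay above the highest si-NC library. The mean went from 15.5 ± 0.933 to 18.3 ± 0.390 FPKM (SD, n = 3), for a log2 fold change of 0.23, SE 0.050 (adjusted p = 0.000177 by edgeR).

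E2F5 (ENSG00000133740, chromosome 8, 85177154 to 85217158, plus strand), the other pocket-bound repressor, had 4.26, 4.01 and 3.92 FPKM in si-NC and 3.67, 3.38 and 3.88 FPKM in si-STRIP2. The groups did not overlap, but si-STRIP2 replicate 3 was 0.04 FPKM from the lowest si-NC library. The log2 fold change was -0.16 with a 95% interval from -0.31 to -0.013, and the adjusted p was 0.0598 by edgeR, so it was not called. The value is uncertain for another reason. RBIS, a gene on the opposite strand that overlaps the end of E2F5, had 265% of its counts, and whether the authors counted by strand is not given in the sources used here. RBIS had a log2 fold change of -0.0087 (edgeR adjusted p = 0.898), and its part in the E2F5 value was not tested.

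E2F6 had the largest change of the E2F genes. E2F6 (ENSG00000169016, chromosome 2, 11444375 to 11466177, minus strand) stood at 13.32, 14.28 and 12.49 FPKM in si-NC and at 10.70, 9.76 and 9.64 FPKM in si-STRIP2. The gap between the groups, 1.79 FPKM, was as wide as the range within si-NC and wider than that within si-STRIP2, 1.06 FPKM. The mean fell from 13.4 ± 0.896 to 10.0 ± 0.580 FPKM (SD, n = 3), to 75.1% of the control level. The log2 fold change was -0.42 with SE 0.055 (adjusted p = 8.43e-08 by edgeR). The 4 annotated E2F6 pseudogenes together held 0.134% as many counts.

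The atypical factor E2F7 also fell. E2F7 (ENSG00000165891, chromosome 12, 77021248 to 77065569, minus strand) had 12.23, 13.76 and 12.62 FPKM in si-NC and 10.76, 10.66 and 10.69 FPKM in si-STRIP2. The si-STRIP2 libraries were nearly identical to one another and all lay under the si-NC libraries. Its mean went from 12.9 ± 0.795 to 10.7 ± 0.0513 FPKM (SD, n = 3), for a log2 fold change of -0.27, SE 0.046 (adjusted p = 9.41e-06 by edgeR). E2F8 (ENSG00000129173, chromosome 11, 19224063 to 19241620, minus strand), its closest relative, was at 10.00, 10.44 and 10.97 FPKM in si-NC and at 9.57, 9.81 and 9.92 FPKM in si-STRIP2. These groups were separated by 0.08 FPKM. The log2 fold change of E2F8 was -0.10 with a 95% interval from -0.21 to 0.010 (edgeR adjusted p = 0.117), which did not pass. The difference between the responses of E2F7 and E2F8 was not tested.

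The DP genes moved in opposite directions. TFDP1 (ENSG00000198176, chromosome 13, 113584721 to 113641473, plus strand) encodes DP1, the main partner through which E2F1 to E2F6 bind DNA. It stood at 64.45, 64.46 and 62.06 FPKM in si-NC and at 78.34, 80.05 and 80.04 FPKM in si-STRIP2. The distance between the groups was several times the range within them. The mean rose from 63.7 ± 1.38 to 79.5 ± 0.984 FPKM (SD, n = 3), for a log2 fold change of 0.32, SE 0.039 (adjusted p = 2.09e-08 by edgeR).

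TFDP2 (ENSG00000114126, chromosome 3, 141944428 to 142149544, minus strand) encodes the second partner, DP2. It had 8.21, 9.15 and 8.12 FPKM in si-NC and 6.55, 6.07 and 6.56 FPKM in si-STRIP2, again without overlap. The mean fell from 8.49 ± 0.570 to 6.39 ± 0.280 FPKM (SD, n = 3), for a log2 fold change of -0.41, SE 0.047 (adjusted p = 4.37e-09 by edgeR). TFDP2 has the longest exonic size of the family, 11897 bases against 3744 for TFDP1, and FPKM divides by this size.

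**Figure D2:**
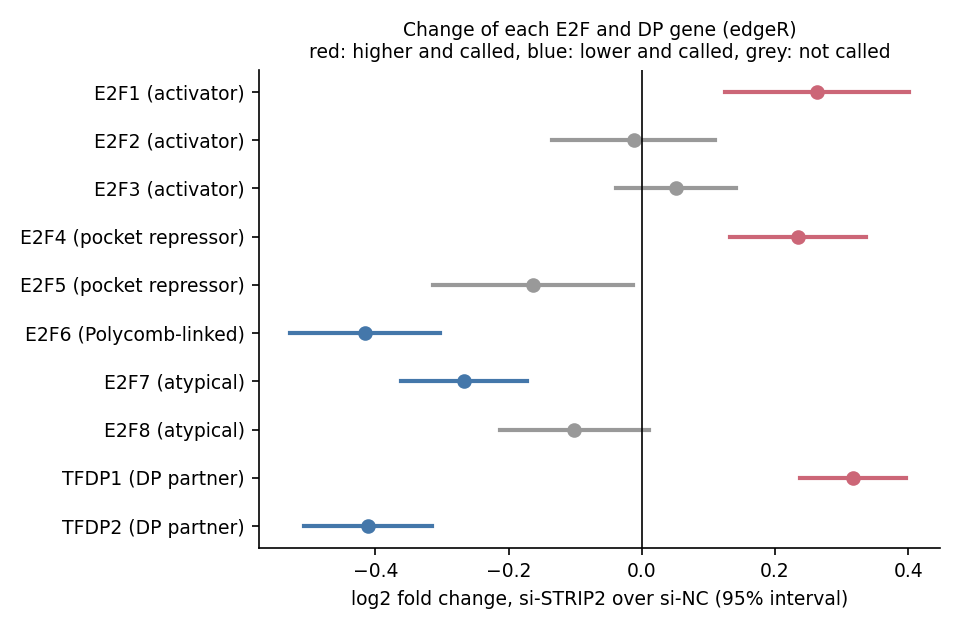
The log2 fold change of each member (point) is drawn with its 95% interval (line) on the horizontal axis, from the edgeR fit over all tested genes. TFDP1, E2F1 and E2F4 (red) lie to the right of 0, E2F6, TFDP2 and E2F7 (blue) to the left, and the 4 members in grey were not called.

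The call of each of these 6 members was kept when any single library was left out. In a test against a 1.2-fold change (glmTreat of edgeR), none of the rises was shown to exceed that size. There 0 members were called higher and 1 had an unadjusted p under 0.05. E2F6 (adjusted p = 0.00601) and TFDP2 (adjusted p = 0.00244) were called in that test. DESeq2 called 3 members higher and 3 lower.

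The opposite movements changed the makeup of the family, while the ranges of its sum overlapped. The 8 E2F genes summed to 85.96, 88.17 and 87.56 FPKM in si-NC and to 86.20, 85.55 and 85.30 FPKM in si-STRIP2, and these ranges overlapped. The activators E2F1, E2F2 and E2F3 together made up 35.5% ± 0.260 of the summed E2F level in si-NC against 38.8% ± 0.632 with si-STRIP2 (SD, n = 3). E2F6, E2F7 and E2F8, which repress without pocket proteins, made up 42.1% ± 1.37 and 35.6% ± 0.351 (SD, n = 3). The ratio of TFDP1 to TFDP2 was 7.85, 7.04 and 7.64 in si-NC and 11.96, 13.19 and 12.20 in si-STRIP2. Summed DP transcripts stood at 0.845, 0.835 and 0.802 of summed E2F transcripts in si-NC and at 0.985, 1.01 and 1.02 of them in si-STRIP2. The ratio of E2F4 to E2F6 moved from 1.17 ± 0.148 to 1.83 ± 0.139, and that of E2F1 to E2F7 from 0.663 ± 0.0515 to 0.957 ± 0.0321 (SD, n = 3). In each of these ratios and shares the groups did not overlap. For TFDP1 to TFDP2, E2F4 to E2F6 and E2F1 to E2F7 this follows from the members. Each of these ratios sets a member called higher over one called lower, both with separate groups. The ratios and shares restate the changes of single members and were given no test, and RNA levels do not give the amounts of the proteins.

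**Figure D3:**
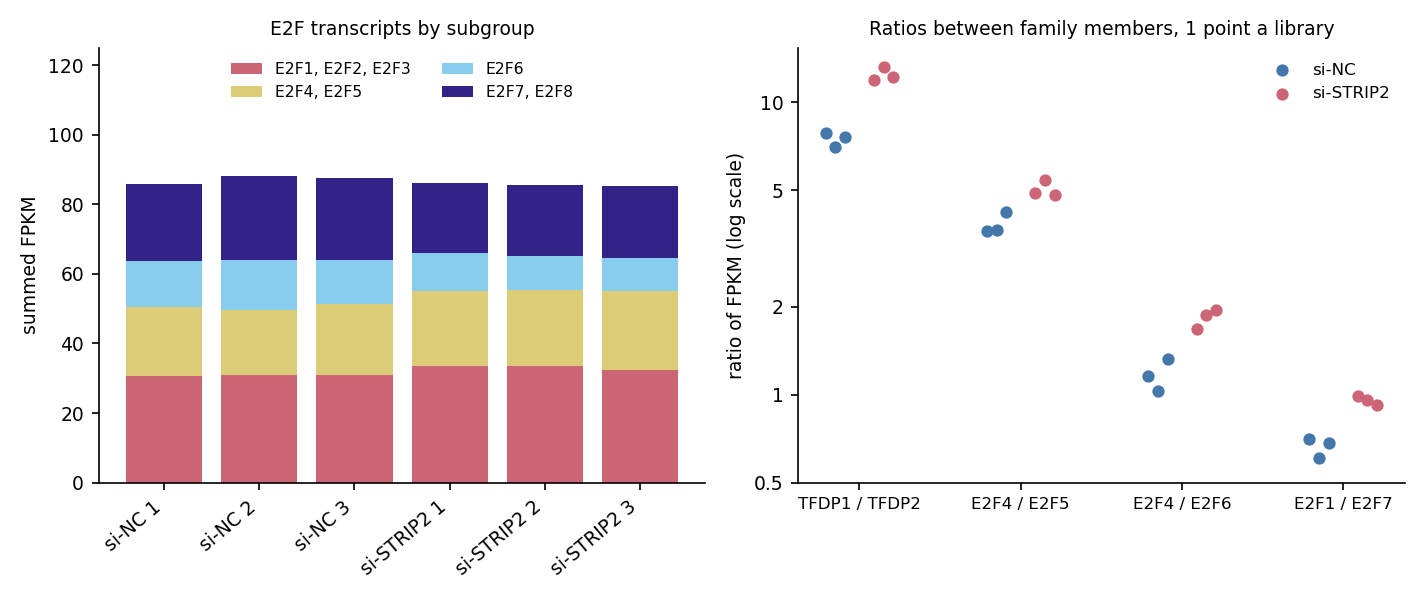
Left, stacked bars give the summed FPKM of the E2F subgroups in each library, from 0. Right, points give ratios of FPKM between members in each library on a log axis, si-NC in blue and si-STRIP2 in red; the bars differ little in height, between 85.30 and 88.17 FPKM, while the TFDP1 to TFDP2 ratio lies near 7.51 in si-NC and 12.4 in si-STRIP2.

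E2F genes are themselves known targets of E2F factors, so their promoters were searched for the E2F binding words TTTCCCGN, TTTCGCGN, TTTGCCGN and TTTGGCGN, where N is any base, on both strands. The sequences are RefSeq promoter windows on GRCh38.p14, from 250 bases before to 50 bases after a gene's start. Windows were found for 8 of the 10 members, and not for E2F5 and E2F8. At least 1 word was present in 6 of the 8 genes, against 10.3% of 27305 genes with a window. The words of a pair of sites can overlap, as they do in E2F1. The 70 bases shown for E2F1, E2F2 and E2F3 end at the base before the start site, and those for TFDP1 and E2F6 are the stretch that holds the site nearest to it. They are shown because they let activators that did and did not pass the test be compared, and capitals mark the fixed bases of the words on either strand.
E2F1 (chr20:33686386-33686455, minus strand): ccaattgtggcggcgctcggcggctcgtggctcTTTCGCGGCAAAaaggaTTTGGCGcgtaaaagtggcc
E2F2 (chr1:23531234-23531303, minus strand): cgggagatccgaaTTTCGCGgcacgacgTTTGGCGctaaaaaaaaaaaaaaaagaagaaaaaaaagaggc
E2F3 (chr6:20401809-20401878, plus strand): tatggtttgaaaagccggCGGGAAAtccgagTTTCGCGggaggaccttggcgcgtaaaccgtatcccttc
TFDP1 (chr13:113584603-113584672, plus strand): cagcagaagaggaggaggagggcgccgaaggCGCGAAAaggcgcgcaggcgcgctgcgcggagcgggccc
E2F6 (chr2:11466192-11466261, minus strand): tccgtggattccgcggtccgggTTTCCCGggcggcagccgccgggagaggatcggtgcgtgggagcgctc

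All 3 activators held words between bases -57 and -14 before the start, with 3 words in E2F1 and 2 each in E2F2 and E2F3. E2F1 was called higher, while E2F2 and E2F3, which also hold words, did not pass the test. Whether the words have a part in this was not tested. TFDP1, which rose, held 1 word at bases -119 to -113, and TFDP2, which fell, held 1 at bases 20 to 26 after the start. E2F6, which fell, held 2. E2F4 rose and E2F7 fell with no word in their windows. The window of TFDP1 starts from a site 32 bases from the deposited gene start and that of E2F6 from a site 16 bases away, and E2F3 and TFDP2 have further windows with no word. A match of letters is a description and does not show binding, and no match says only that these words are not in this window.

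The genes around the family were read from lists grouped by role. Counts of overlapping genes are given below for some of them. The overlapping gene with the most counts lay on the opposite strand, except for CHEK1 and CHAF1B, where it lay on the same strand. Of the 3 pocket proteins that hold E2Fs in check, RB1 fell and the other 2 did not pass, beside 27.0% of all tested genes called lower. RB1 went from 23.3 ± 0.998 to 20.4 ± 0.838 FPKM (SD, n = 3), a log2 fold change of -0.20 (SE 0.043, adjusted p = 0.000229 by edgeR). RBL1, at 0.073, and RBL2, at -0.046, had edgeR adjusted p-values of 0.229 and 0.432, and genes that overlap RBL2 held 63.3% as many counts. Among the 7 genes of the MuvB core with MYBL2 and FOXM1, which join E2F4 or follow it in the cycle, 3 rose, 1 fell and 3 did not pass, so 4 of 7 were called, near the 54.8% of all tested genes. MYBL2, the B-MYB factor, rose by 0.22 on the log2 scale (edgeR adjusted p = 4.34e-05), LIN9 was lower by a log2 fold change of -0.16 (edgeR adjusted p = 0.0218), and FOXM1 at -0.087 and LIN54 at -0.068 did not pass. Genes that overlap FOXM1 and LIN54 held 62.4% and 29.6% as many counts. The call of LIN9 was lost without any 1 of si-NC replicate 2, si-STRIP2 replicate 1 and si-STRIP2 replicate 2, with edgeR adjusted p-values of 0.0563, 0.109 and 0.0625, and by DESeq2 (adjusted p = 0.0831).

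Cyclins and CDKs whose kinase activity releases E2Fs from pocket proteins were listed together with the phosphatase CDC25A and with CCNA2, a cyclin of S phase and G2. Of these 10 genes 9 were tested, 8 rose and 1 fell, beside 27.8% of tested genes called higher. Their median log2 fold change was 0.30, and that of all tested genes 0.014. This list was chosen with earlier results of these data known, so its rise is not independent evidence. CCNE1, the cyclin partner of CDK2 at S phase entry and a known E2F target, went from 11.1 ± 0.863 to 20.5 ± 0.617 FPKM (SD, n = 3), a log2 fold change of 0.89 (SE 0.059, adjusted p = 1.34e-14 by edgeR). CDC25A, the phosphatase that activates CDK2, rose by 0.58, CDK2 by 0.30 and CDK4, whose overlapping genes held 28.3% as many counts, by 0.20 on the log2 scale. CCNE2 had 0.53 and CCNA2 0.62, but genes that overlap them held 524% and 82.3% as many counts, which makes these values uncertain. CCND1, the cyclin of the early G1 kinases, was the one that fell (log2 fold change -0.16, edgeR adjusted p = 0.00221). The call of CDK6, at 0.16, was lost without si-NC replicate 1 (edgeR adjusted p = 0.104), by DESeq2 (0.0736) and by limma on log2(FPKM + 1) (0.0781) and log2(FPKM + 0.1) (0.0770).

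Of 7 CDK inhibitors, 2 were called higher, 3 lower and 2 were not called, beside 27.8% of tested genes called higher and 27.0% lower. CDKN2B, named after its values were seen, had the largest change of the list, a log2 fold change of -0.81 (edgeR adjusted p = 5.66e-10). Genes that overlap CDKN2B held 24.5% as many counts. CDKN1A, the p21 inhibitor of CDK2, went from 43.3 ± 0.822 to 28.4 ± 1.78 FPKM (SD, n = 3), a log2 fold change of -0.61 (SE 0.045, adjusted p = 1.29e-13 by edgeR). CDKN1B, the p27 inhibitor, had -0.19 (edgeR adjusted p = 0.000757), and CDKN2C, the p18 inhibitor of CDK4 and CDK6 and a known E2F target, rose by 0.54 (edgeR adjusted p = 2.24e-05).

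Ubiquitin ligase subunits that mark E2F proteins for degradation were read as a list of 3 genes. All 3 were called higher, beside 27.8% of all tested genes. These 3 were also chosen with earlier results of these data known, so the count is not independent evidence. SKP2 had the largest change, from 1.65 ± 0.0586 to 4.16 ± 0.133 FPKM (SD, n = 3). The log2 fold change of SKP2 was 1.33 (SE 0.053, adjusted p = 1.39e-20 by edgeR). CCNF, the cyclin F subunit whose ligase acts on E2F1, E2F7 and E2F8 among others, rose by 0.55 (edgeR adjusted p = 2.31e-11). FZR1, an activator of the anaphase-promoting ligase, rose by 0.21 (edgeR adjusted p = 0.00560). Genes that overlap SKP2 and FZR1 held 118% and 92.8% as many counts, so both values are uncertain.

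Of the 10 genes of PRC1.6, the Polycomb complex of E2F6, 3 rose, 2 fell and 5 did not pass. So 5 of 10 were called, near the 54.8% of all tested genes. CBX3, which rose and is named here for its overlap, has an uncertain value, since overlapping genes held 363% as many counts. L3MBTL2, a subunit particular to that complex, went from 4.02 ± 0.115 to 5.65 ± 0.290 FPKM (SD, n = 3), a log2 fold change of 0.49 (SE 0.064, adjusted p = 6.00e-08 by edgeR). The 2 that fell were named after their values were seen. RYBP, a subunit shared with other Polycomb complexes, had the largest change of the list, from 13.8 ± 0.252 to 9.31 ± 0.502 FPKM (SD, n = 3), a log2 fold change of -0.57 (SE 0.044, adjusted p = 6.58e-13 by edgeR). RNF2, the RING1B ubiquitin ligase, had -0.27 (edgeR adjusted p = 1.01e-05). PCGF6 was at -0.071 (edgeR adjusted p = 0.201) and MGA at 0.11 (edgeR adjusted p = 0.0833). MGA was called without si-NC replicate 2, at 0.19 (edgeR adjusted p = 0.00205). Germline genes are known to be kept silent by E2F6, and their summed level was 3.31 to 3.61 FPKM in si-NC and 3.37 to 4.02 FPKM in si-STRIP2. Most of that sum was TDRKH, named after its values were seen, at 2.88 to 3.13 FPKM in si-NC and 2.94 to 3.52 FPKM in si-STRIP2. Of 5 such genes 3 had enough counts to be tested. By edgeR or by DESeq2 0 were called, beside 54.8% of all tested genes called by edgeR. In either, 0 had an unadjusted p under 0.05. STAG3 and SMC1B, cohesin subunits of meiosis, had at most 0.263 FPKM as a group mean, and their differences were not detectable at this depth. Genes that overlap STAG3 held 455% as many counts.

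Genes that E2Fs switch on for S phase mostly rose. Of 42 such G1/S target genes, all tested, 33 rose, 4 fell and 5 did not pass, beside 27.8% of tested genes called higher. Their median was 0.49 on the log2 fold scale, and that of all tested genes 0.014. The list is textbook knowledge, but it was written with earlier results of these data known, and its rise is not independent evidence. Some of the genes that rose have uncertain values. Overlapping genes held 503% as many counts as RFC4, 345% as GINS2, 111% as CHAF1B and 105% as MSH6, named here for these overlaps. The list was not counted without them. TK1, the thymidine kinase, went from 48.2 ± 2.11 to 79.6 ± 4.32 FPKM (SD, n = 3), a log2 fold change of 0.72 (SE 0.046, adjusted p = 3.93e-15 by edgeR). PCNA, the sliding clamp of DNA polymerases, rose by 0.45 on the log2 scale (edgeR adjusted p = 4.14e-11). TYMS, thymidylate synthase, had 0.44, with overlapping genes at 60.3% of its counts. The target genes did not all move one way. CDC6, the helicase loader, was at -0.17 (edgeR adjusted p = 0.000667), and RRM2, a ribonucleotide reductase subunit, at -0.18 (edgeR adjusted p = 0.000595). CHEK1 was at -0.10 (edgeR adjusted p = 0.0328), a call lost without any 1 of si-NC replicate 1, si-NC replicate 2, si-STRIP2 replicate 1 and si-STRIP2 replicate 2, by DESeq2 (adjusted p = 0.0659), with no filter on low counts (0.0921) and with the replicate block (0.0682), and overlapping genes held 222% as many counts. EXO1, outside the rule for named genes and chosen after its values were seen, was the other of the 4 that fell, at -0.12 (edgeR adjusted p = 0.0257), a call lost without si-NC replicate 2 (0.0864) or si-STRIP2 replicate 2 (0.113), by DESeq2 (0.0699), with no filter on low counts (0.0746) and with the replicate block (0.0508). At least 1 E2F word stood in the promoter windows of 24 of the 35 target genes with a window, or 68.6%. These are bulk libraries, in which a shift in the share of cells in S phase and a change in RNA per cell cannot be told apart.

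**Figure D4:**
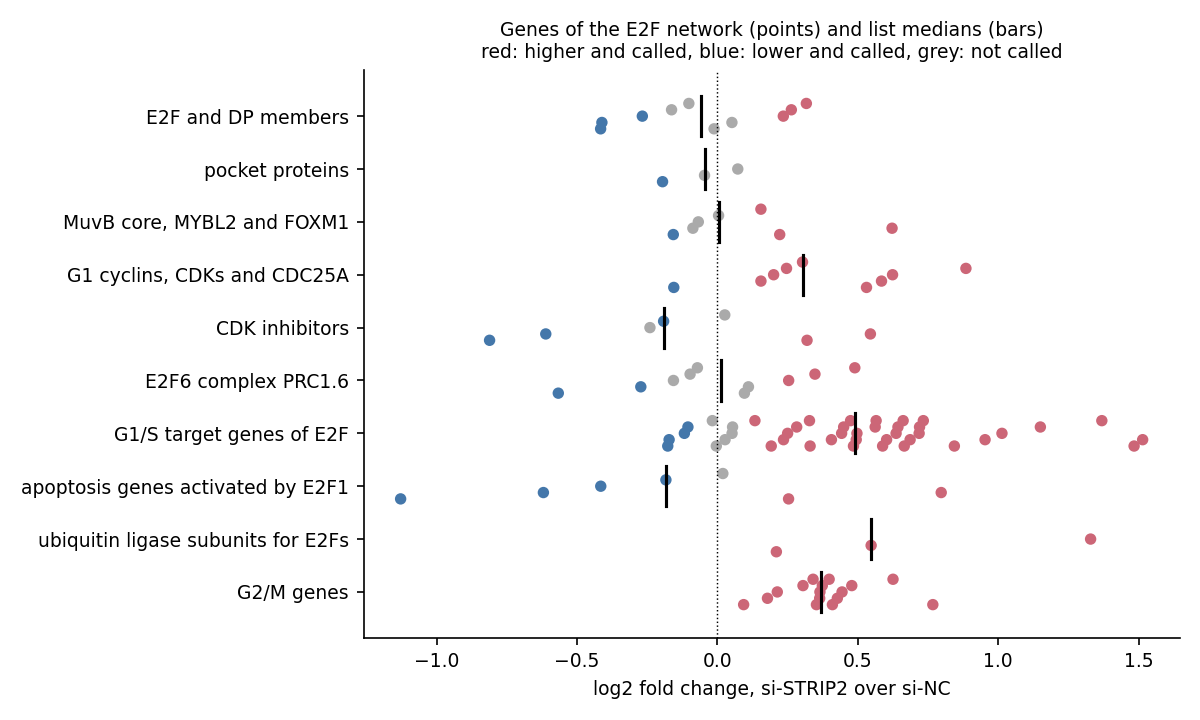
Each point is a tested gene, placed by its log2 fold change on the horizontal axis and by its list on the vertical axis, and black bars are list medians; red points were called higher, blue lower and grey not called. The members spread from -0.42 to 0.32 around a median of -0.057, while the G1/S targets have a median of 0.49 and reach 1.51.

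The genes whose pattern over the 6 libraries was most like that of a member were found for E2F1, E2F4 and TFDP1. The measure was the root mean square difference of log2 CPM, each gene centred on its own mean. CPM here is the count scaled to the library total adjusted by its TMM factor. The search covered 11297 genes with a symbol and a mean of at least 1 FPKM. For E2F1 the nearest genes were DBN1, which encodes drebrin, at 0.0080 and ATF4, a stress transcription factor, at 0.021. For E2F4 they were SMYD4 at 0.024 and URM1 at 0.029, and for TFDP1 they were NIPSNAP1 at 0.0091 and NUP42 at 0.012. The extent of such likeness varied, from 39 genes within 0.05 of E2F6 to 459 of TFDP1, with 282 of E2F1 and 66 of E2F4. Within the family the member nearest to E2F1 was TFDP1, at 0.056, and E2F6 and TFDP2 were nearest to each other, at 0.053.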

How the data were processed

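Poly(A) RNA was sequenced from directional libraries, per the labels' protocols. The submitters' processing notes name bcl2fastq 2.20.0.422, FastQC 0.10.1, cutadapt 1.9.1, HISAT2 2.2.1, HTSeq 0.6.1 and GRCh38.p13; the annotation release and strand setting are not given in the sources used here. The authors deposited a raw count per gene and library and an FPKM value, which scales the count by exonic size and library total, per the file headers. No deposited value column was left unused.

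Counts were tested in R 4.3.3 with edgeR 4.0.16: filterByExpr (minimum count 10) kept 15687 genes with 99.8% of counts, followed by TMM scaling, a quasi-likelihood F test (2-sided) with group as the only term, and Benjamini-Hochberg adjustment over all tested genes. Standard errors (SE) were taken as the size of the log2 fold change over the root of the F statistic. Counts per gene limit the precision, and intervals are those of the fit. The scripts were tested on simulated data. Alternatives used DESeq2 1.42.0, limma 3.58.1 on log2(FPKM + 1) and log2(FPKM + 0.1), other scalings and filters, and each library left out. Libraries of a group differed by more than counting noise (chi-square per degree of freedom 4.91 to 16.6 in si-NC, widest between replicates 2 and 3, and 2.14 to 2.27 in si-STRIP2). Named genes were the members, STRIP2, genes chosen by textbook role, and the 2 nearest profiles of E2F1, E2F4 and TFDP1, except 1 gene that is not reported here. The members and lists were chosen with earlier results of these data known.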

Additional observations from a re-analysis of the deposited data

How the results depend on the processing

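Results were recomputed under 16 alternatives, 6 of which left out 1 library each. E2F1, E2F4, E2F7 and TFDP1 kept their direction in all 16 and their call in 15, the exception being the test against a 1.2-fold change (adjusted p = 0.543, 0.791, 0.503 and 0.1001), and E2F6 and TFDP2 kept both in all 16. That test, which is stricter than the main one, called 3723 genes, 1780 higher and 1943 lower, and 2 members, 0 of them higher. It called 0 G1/S targets lower (0 of those at an unadjusted p under 0.05) and ended the calls of 15 other named genes. G1/S targets called lower were 2 under DESeq2, with no filter on low counts and with the replicate block, and 2 to 4 with libraries left out; the cause was not tested. With libraries left out, all calls ranged from 7690 to 8494. E2F5 was called with DESeq2 size factors in edgeR (adjusted p = 0.0497), with the 1 FPKM filter (0.0352), without si-NC replicate 3 (0.0407) and when si-STRIP2 replicate 3 was left out (0.0283). FOXM1 was called under 3 alternatives, with adjusted p-values from 0.0215. Near 0, directions turned: with libraries left out E2F2 ranged from -0.058 to 0.036, TDRKH from -0.042 to 0.10 and STAG3 from -0.43 to 0.085. The replicate numbers were not taken as pairs, since deviations of same-numbered libraries had correlations of -0.086, -0.013 and -0.072 and none correlated best with its own number; with the replicate block 8293 genes were called in place of 8599, and 6 members. Genes at low counts, such as STAG3 and SMC1B, are limited by depth.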

Other observations

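Of 7 apoptosis genes that E2F1 is known to activate, all tested, 2 rose, 4 fell and 1 did not pass, beside 27.8% of all tested genes called higher and 27.0% lower. Their median log2 fold change was -0.18 against 0.014 over all tested genes. APAF1, the scaffold of the apoptosome, went from 3.38 ± 0.275 to 5.88 ± 0.0265 FPKM (SD, n = 3), a log2 fold change of 0.80 (SE 0.061, adjusted p = 3.52e-13 by edgeR). TP73, the p53 relative, was higher at 0.25 (edgeR adjusted p = 0.0114), and not called once si-STRIP2 replicate 3 was left out (adjusted p = 0.0561 by edgeR) or by DESeq2 (adjusted p = 0.0887), and overlapping genes held 186% as many counts. BCL2L11 and PMAIP1, which encode the pro-death proteins BIM and NOXA and were chosen after their values were seen, had log2 fold changes of -1.13 and -0.62 (edgeR adjusted p = 1.28e-18 and 9.21e-15), and genes that overlap BCL2L11 held 55.8% as many counts. Of 16 G2/M genes, many of them held silent by DREAM in resting cells, all 16 rose, beside 27.8% of all tested genes called higher. Their median was 0.37 on the log2 fold scale against 0.014 over all tested genes. CDK1, named here because its call was near the threshold, was at 0.093 (edgeR adjusted p = 0.0457). The calls of this list come from the main fit and were not recomputed under the alternatives. The list was written with earlier results of these data known, and its rise is not independent evidence. Overlapping genes held 220% as many counts as CDC25C, 189% as NUSAP1 and 156% as KIF20A, named here for these overlaps. Their values are uncertain, and the list was not counted without them.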
